A study of Rattus norvegicus with 46 samples.

Results

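Polyamine and arginine metabolism was followed through 10 genes in rat kidneys after ischemia-reperfusion (IR) injury, namely Amd1, Odc1, Sat1, Srm, Sms, Smox, Azin1, Arg2, Ass1 and Gatm. They are 10 of 17245 genes that carry a symbol of their own on the array. Each gene is represented by 1 probe set, a group of short probes read together as 1 value. Where a gene had several probe sets with no other gene's symbol, the one used was chosen by its mean level over all 46 arrays, so that level is a description and nothing was tested with it. The genes themselves were selected with earlier results of these arrays known.

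Polyamines are small positively charged molecules that bind nucleic acids and are needed for growth and protein synthesis. Arginase turns arginine into ornithine, ornithine decarboxylase (Odc1) turns ornithine into putrescine, and spermidine synthase (Srm) and spermine synthase (Sms) add aminopropyl groups that S-adenosylmethionine decarboxylase (Amd1) supplies. Antizyme destroys Odc1 protein, and the antizyme inhibitor Azin1 protects it. Spermidine/spermine N1-acetyltransferase (Sat1) opens the route back to putrescine, and spermine oxidase (Smox) converts spermine to spermidine with release of hydrogen peroxide. The proximal tubule of the kidney is a main site where citrulline is turned into arginine, through argininosuccinate synthase (Ass1), and where glycine amidinotransferase (Gatm) uses arginine for the first step of creatine synthesis.

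The RNA came from frozen pieces of the left kidney of male Wister rats of 200 to 300 g, with 1 array per animal. The kidney had been cut lengthwise, and its other part was fixed for histology. The injured animals had an intraperitoneal dose of dexamethasone (Dex, a glucocorticoid, 3 mg/kg), valproic acid (VPA, a histone deacetylase inhibitor, 150 mg/kg) or saline (Vehicle) 30 min ahead of surgery. Blood flow to the left kidney was then stopped for 45 min by a clamp, and at reperfusion the right kidney was taken out. Kidneys were taken at 3 h (4 Dex, 5 VPA and 5 Vehicle animals), 24 h (5 Dex, 5 VPA and 4 Vehicle) and 120 h (4 Dex, 4 VPA and 5 Vehicle) post-IR, and from 5 naïve animals. Naïve animals were not operated on, so every difference from naïve holds the surgery, the longer anesthesia and the loss of the right kidney as well as the ischemia. The 3 h animals stayed under anesthesia until sacrifice, whereas the 24 h and 120 h animals recovered and had the analgesic buprenorphine after surgery. All 3 h experiments were done first, and those of 24 h and 120 h followed. Time after injury therefore cannot be told apart from anesthesia, analgesic and order of the experiments. The ages of the animals are not given in the sources used here. In RNA from unsorted kidney tissue, fewer cells of a type and less RNA per cell cannot be told apart.

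Array medians ran from 64.7 to 87.5 signal units, and no 2 arrays held identical values. The highest median was that of Vehicle 3 h replicate 1, whose lower quartile was 37.6, against 23.0 to 25.6 in the other Vehicle 3 h arrays. Within that group it had the lowest signals of Sat1, Azin1 and Srm and the highest of Amd1. By their overall profile 3 arrays lay nearest the mean of another time after injury: Vehicle 24 h replicate 1 (nearest 3 h), VPA 24 h replicate 2 (nearest 120 h) and Vehicle 120 h replicate 4 (nearest 24 h). A further 5 injured arrays lay nearest naïve, namely Dex 24 h replicate 4, VPA 3 h replicate 3, VPA 120 h replicates 2 and 3, and Vehicle 120 h replicate 1. All were kept, and several results are also given without them.

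For 9 of the 10 genes the probe set used lay in numbering among probe sets of the chromosome that carries the gene (18 or more of the 20 nearest named probe sets). The exception was Smox. Its probe set had 19 of 20 neighbours on chromosome X, whereas RefSeq places Smox on chromosome 3. A second probe set, among chromosome 3 neighbours, carries the symbols of both Smox and RGD1564480, so the Smox values are uncertain. Sms had 2 other probe sets, lying among probe sets of chromosomes 13 and 3, and named pseudogenes exist for Amd1 (3), Odc1 (10), Sms (2) and Ass1 (2), and cross-hybridization to near-identical copies was not tested.

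The start regions of Amd1, Srm and Sat1 are shown because these genes had the 3 separate time courses described below: high after Dex at 3 h, highest at 24 h, and high at 3 h in every injured group. Each sequence is the RefSeq promoter window of build GRCr8, from 250 bases before to 50 bases after an annotated start, written in the direction of the gene. Capitals mark matches to any of 6 motifs that were searched on both strands: the E-box CACGTG, the cyclic AMP response element TGACGTCA, the AP-1 motif TGANTCA, the ATF4 motif TGATGNAA, the heat shock motif GAANNTTC and the glucocorticoid receptor hexamer AGAACA.
Amd1 (chr20:45265933-45266232, minus strand): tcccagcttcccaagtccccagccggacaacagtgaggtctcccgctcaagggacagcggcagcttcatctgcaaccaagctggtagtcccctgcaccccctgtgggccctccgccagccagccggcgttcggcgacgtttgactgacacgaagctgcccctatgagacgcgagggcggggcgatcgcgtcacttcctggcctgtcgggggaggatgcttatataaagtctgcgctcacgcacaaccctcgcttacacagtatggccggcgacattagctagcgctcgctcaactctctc
Srm (chr5:164308752-164309051, plus strand): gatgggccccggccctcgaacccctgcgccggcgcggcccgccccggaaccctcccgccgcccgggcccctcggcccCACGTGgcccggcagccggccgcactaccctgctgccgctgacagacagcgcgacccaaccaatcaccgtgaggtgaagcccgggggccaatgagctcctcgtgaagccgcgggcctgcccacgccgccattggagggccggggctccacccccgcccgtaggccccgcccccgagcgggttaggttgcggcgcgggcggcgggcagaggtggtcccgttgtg
Sat1 (chrX:44007839-44008138, plus strand): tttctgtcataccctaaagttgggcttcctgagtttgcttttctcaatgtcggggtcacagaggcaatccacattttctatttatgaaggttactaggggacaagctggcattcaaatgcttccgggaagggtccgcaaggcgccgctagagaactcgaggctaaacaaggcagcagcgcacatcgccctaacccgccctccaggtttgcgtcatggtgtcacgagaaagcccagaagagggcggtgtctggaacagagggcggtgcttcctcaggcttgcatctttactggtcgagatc
A promoter was found for 8 of the 10 genes, that is all but Azin1 and Arg2. The only match among the 8 was 1 E-box, the binding motif of the Myc family, 173 bases before the start of Srm. By comparison 6.42% of all 33469 promoters of this length held an E-box, 1.83% the cyclic AMP response element, 7.33% the AP-1 motif, 3.98% the ATF4 motif, 8.59% the heat shock motif and 20.7% the glucocorticoid receptor hexamer. A match is only an occurrence of these letters. The Amd1 window lies inside the RefSeq locus of the gene (chr20:45250289-45324939). The windows of Ass1, Gatm, Smox and Sms also lie inside their loci. Any start further upstream in these genes was not searched.

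Groups were compared with limma on log2(signal + 16), in 1 fit over all 10 groups, and fold changes below are on that scale. A gene was called where the Benjamini-Hochberg adjusted p over 14607 probe sets was under 0.05 and the change was at least 2-fold. Of the 10 genes 9 were tested, since Sms lay among the 50% of probe sets with the lowest SD, which were removed. At 3 h post-IR 3 genes rose in Dex kidneys against naïve (Amd1, Sat1 and Azin1), 0 in VPA kidneys and 2 in Vehicle kidneys (Sat1 and Azin1). Of all probe sets tested, 4.44% rose in Dex, 1.43% in VPA and 3.18% in Vehicle kidneys at 3 h. No member fell at 3 h, where 0.657%, 0.459% and 0.459% of probe sets fell in Dex, VPA and Vehicle kidneys.

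At 24 h Srm rose in all 3 injured groups, against 2.59%, 5.92% and 4.79% of probe sets in Dex, VPA and Vehicle kidneys, and Gatm fell in Dex kidneys. The shares of probe sets that fell were 2.59% in Dex, 3.55% in VPA and 4.23% in Vehicle kidneys at 24 h. At 120 h Odc1 fell in Dex and in Vehicle kidneys, and no other member was called. At that time 4.76% of probe sets rose and 3.73% fell in Dex kidneys, 0.493% and 0.192% in VPA kidneys, and 1.83% and 1.51% in Vehicle kidneys. With the adjusted p alone and no fold threshold, 4, 2 and 2 of the 9 genes passed at 3 h in Dex, VPA and Vehicle kidneys, beside 19.8%, 13% and 18.5% of probe sets. At 24 h 3, 4 and 6 passed, beside 20.4%, 33% and 29%. At 120 h 2, 0 and 1 passed, beside 26.8%, 1.38% and 13.1%. In VPA kidneys at 120 h, where 0 genes passed, 2 had an unadjusted p under 0.05, for which no share of all probe sets is given here. Against naïve the median of the 10 genes ran from -0.17 (Dex 120 h, where that of all tested probe sets was -0.01) to 0.07 (Vehicle 24 h, against 0.13).

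**Figure D1:**
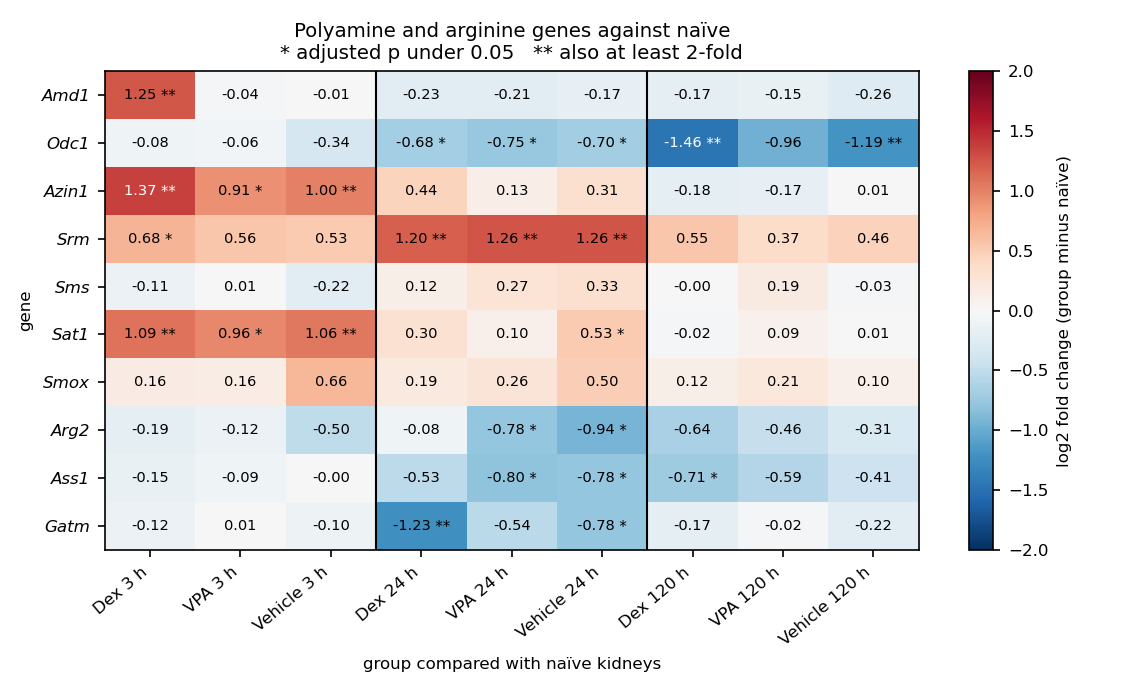
Log2 fold change of each of the 10 genes (rows) in each injured group against naïve kidneys (columns, by time after injury), as colour and as number. At 3 h Azin1 and Sat1 were high in every group and Amd1 was high in Dex kidneys (1.25), and at 24 h Srm was high in all 3 groups. At 120 h Odc1 was low in Dex and Vehicle kidneys, and its lower value in VPA kidneys was not called.

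Amd1, the decarboxylase that supplies the aminopropyl groups, rose at 3 h in Dex kidneys. Its signal there was 1554, 1456, 1901 and 2085, against 574, 794, 570, 800 and 815 in VPA kidneys, 986, 540, 702, 721 and 702 in Vehicle kidneys, and 815, 738, 693, 673 and 689 in naïve kidneys. All 4 Dex kidneys lay above every other array of the series, whereas the VPA, Vehicle and naïve ranges overlapped. The log2 fold change was 1.25 ± 0.13 (SE) in Dex against Vehicle kidneys (adjusted p = 1.24e-07) and 1.25 ± 0.13 against naïve (adjusted p = 8.65e-09), and both comparisons use the same 4 Dex arrays. It was called under all 11 other settings, in both comparisons, and with each array left out in turn (1.15 to 1.37 against Vehicle). Among the 14607 probe sets 0.171% were called in either direction between Dex and Vehicle at 3 h.

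The height of Amd1 in Dex kidneys was not seen at the later times. At 24 h its signal was 573 to 634 in Dex, 546 to 713 in VPA and 583 to 679 in Vehicle kidneys, and at 120 h 549 to 735, 554 to 746 and 537 to 698, with overlapping groups throughout. The difference between Dex and Vehicle was smaller by 1.32 ± 0.19 log2 units at 24 h than at 3 h (difference -1.32, adjusted p = 1.19e-04) and by 1.17 ± 0.19 at 120 h than at 3 h (difference -1.17, adjusted p = 0.00161). Only 4 and 7 of the 14607 probe sets passed these tests of the difference (0.0274% and 0.0479%), and no other member did. VPA and Vehicle kidneys at 3 h differed in Amd1 by -0.03, with a 95% interval of -0.28 to 0.22.

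Azin1, the protector of Odc1 protein, rose in Dex and Vehicle kidneys at 3 h. Its signal was 1400, 1352, 1235 and 1371 in Dex kidneys, 742, 1020, 689, 1317 and 1264 in VPA kidneys, and 791, 1327, 1039, 1143 and 965 in Vehicle kidneys, against 461, 639, 505, 460 and 501 in naïve kidneys. Every injured kidney at 3 h lay above every naïve kidney, and the Dex kidneys varied least. The log2 fold changes were 1.37 ± 0.18 in Dex (adjusted p = 3.03e-07), 0.91 ± 0.17 in VPA (adjusted p = 1.85e-04, under 2-fold) and 1.00 ± 0.17 in Vehicle kidneys (adjusted p = 3.00e-05). The Vehicle value sat at the fold threshold and the call was lost in 5 of 10 fits with 1 array left out, in all of which the adjusted p stayed at or below 2.43e-04. Dex and Vehicle kidneys differed by 0.36 ± 0.18, which did not pass (adjusted p = 0.820). At 24 h the signal was 517 to 821 in Dex, 532 to 608 in VPA and 516 to 877 in Vehicle kidneys, and at 120 h the 3 groups overlapped naïve kidneys.

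Odc1, the ornithine decarboxylase, was called up at no time and fell late. At 3 h its signal was 1906 to 2207 in Dex, 1808 to 2193 in VPA and 1402 to 2064 in Vehicle kidneys, against 1707, 3485, 2075, 1669 and 2056 in naïve kidneys. At 120 h it was 634, 920, 759 and 744 in Dex kidneys, 665, 1930, 1876 and 558 in VPA kidneys, and 1529, 692, 703, 1304 and 674 in Vehicle kidneys. All Dex and Vehicle kidneys lay below all naïve kidneys, while the VPA kidneys fell into a low and a high pair.

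The log2 fold changes of Odc1 at 120 h were -1.46 ± 0.27 in Dex (adjusted p = 4.71e-04), -0.96 ± 0.27 in VPA (adjusted p = 0.0527) and -1.19 ± 0.25 in Vehicle kidneys (adjusted p = 0.00435). The 2 high VPA kidneys, replicates 2 and 3, and Vehicle replicate 1 were the arrays of that time that lay nearest naïve in overall profile. Without VPA replicate 2 the VPA value was -1.24 (adjusted p = 0.00509), and without replicate 3 it was -1.22 (adjusted p = 0.0120). In the other direction, without naïve replicate 2 the 120 h falls were smaller in all 3 groups. They were then -1.28 in Dex and -1.01 in Vehicle kidneys, both still called, the latter close to the fold threshold. The VPA fall stayed under 2-fold and was not called. At 24 h the values were -0.68, -0.75 and -0.70 in Dex, VPA and Vehicle kidneys (adjusted p = 0.0474, 0.0182 and 0.0430), all under 2-fold. They rested in part on naïve replicate 2, the highest of all arrays, without which they were -0.51, -0.57 and -0.52 (adjusted p = 0.156, 0.0902 and 0.159).

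Srm, the spermidine synthase, rose at 24 h in all 3 injured groups. Its signal was 1021, 908, 776, 546 and 1048 in Dex kidneys, 994, 505, 851, 946 and 1263 in VPA kidneys, and 508, 1061, 1087 and 1011 in Vehicle kidneys, against 416, 398, 314, 309 and 360 in naïve kidneys. No injured kidney overlapped the naïve range, and in each group 1 kidney stood well below the others: Dex replicate 4, VPA replicate 2 and Vehicle replicate 1, which are the 3 arrays of that time that lay nearest another time or naïve. Against naïve, log2 fold changes were 1.20 ± 0.21 in Dex (adjusted p = 4.42e-04), 1.26 ± 0.21 in VPA (adjusted p = 6.88e-05) and 1.26 ± 0.23 in Vehicle kidneys (adjusted p = 2.45e-04). Leaving out Vehicle replicate 1 gave 1.52 (adjusted p = 8.26e-06).

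At 3 h Srm lay between these levels, with 506 to 654 in Dex, 476 to 659 in VPA and 404 to 691 in Vehicle kidneys. The Dex value of 0.68 ± 0.23 had an adjusted p of 0.0287 and was under 2-fold, and this adjusted p was 0.0679 to 0.0925 without naïve replicate 3 or 4 or Dex replicate 3 or 4, whereas those of VPA (0.56) and Vehicle (0.53) had adjusted p of 0.0766 and 0.0788. At 120 h the log2 fold changes were 0.55, 0.37 and 0.46 in Dex, VPA and Vehicle kidneys, with adjusted p of 0.0642, 0.329 and 0.130. Proliferation markers were high beside Srm, with 4, 7 and 4 of 7 measured genes called up at 24 h in Dex, VPA and Vehicle kidneys and medians of 1.14, 1.90 and 1.09. At 120 h 6, 0 and 5 of these markers were called up. Of all probe sets 2.59%, 5.92% and 4.79% rose at 24 h, and 4.76%, 0.493% and 1.83% at 120 h. The part of proliferation in the result was not tested.

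Sms, the spermine synthase, varied little, with 77.9 to 197 signal units over all 46 arrays. Its highest value against naïve was 0.33 ± 0.13 in Vehicle kidneys at 24 h (adjusted p = 0.0799 over all 29214 probe sets), and every injured group overlapped naïve kidneys. Only between Vehicle 24 h and Vehicle 3 h did it pass when all probe sets were tested (0.55 ± 0.13, adjusted p = 0.00846).

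**Figure D2:**
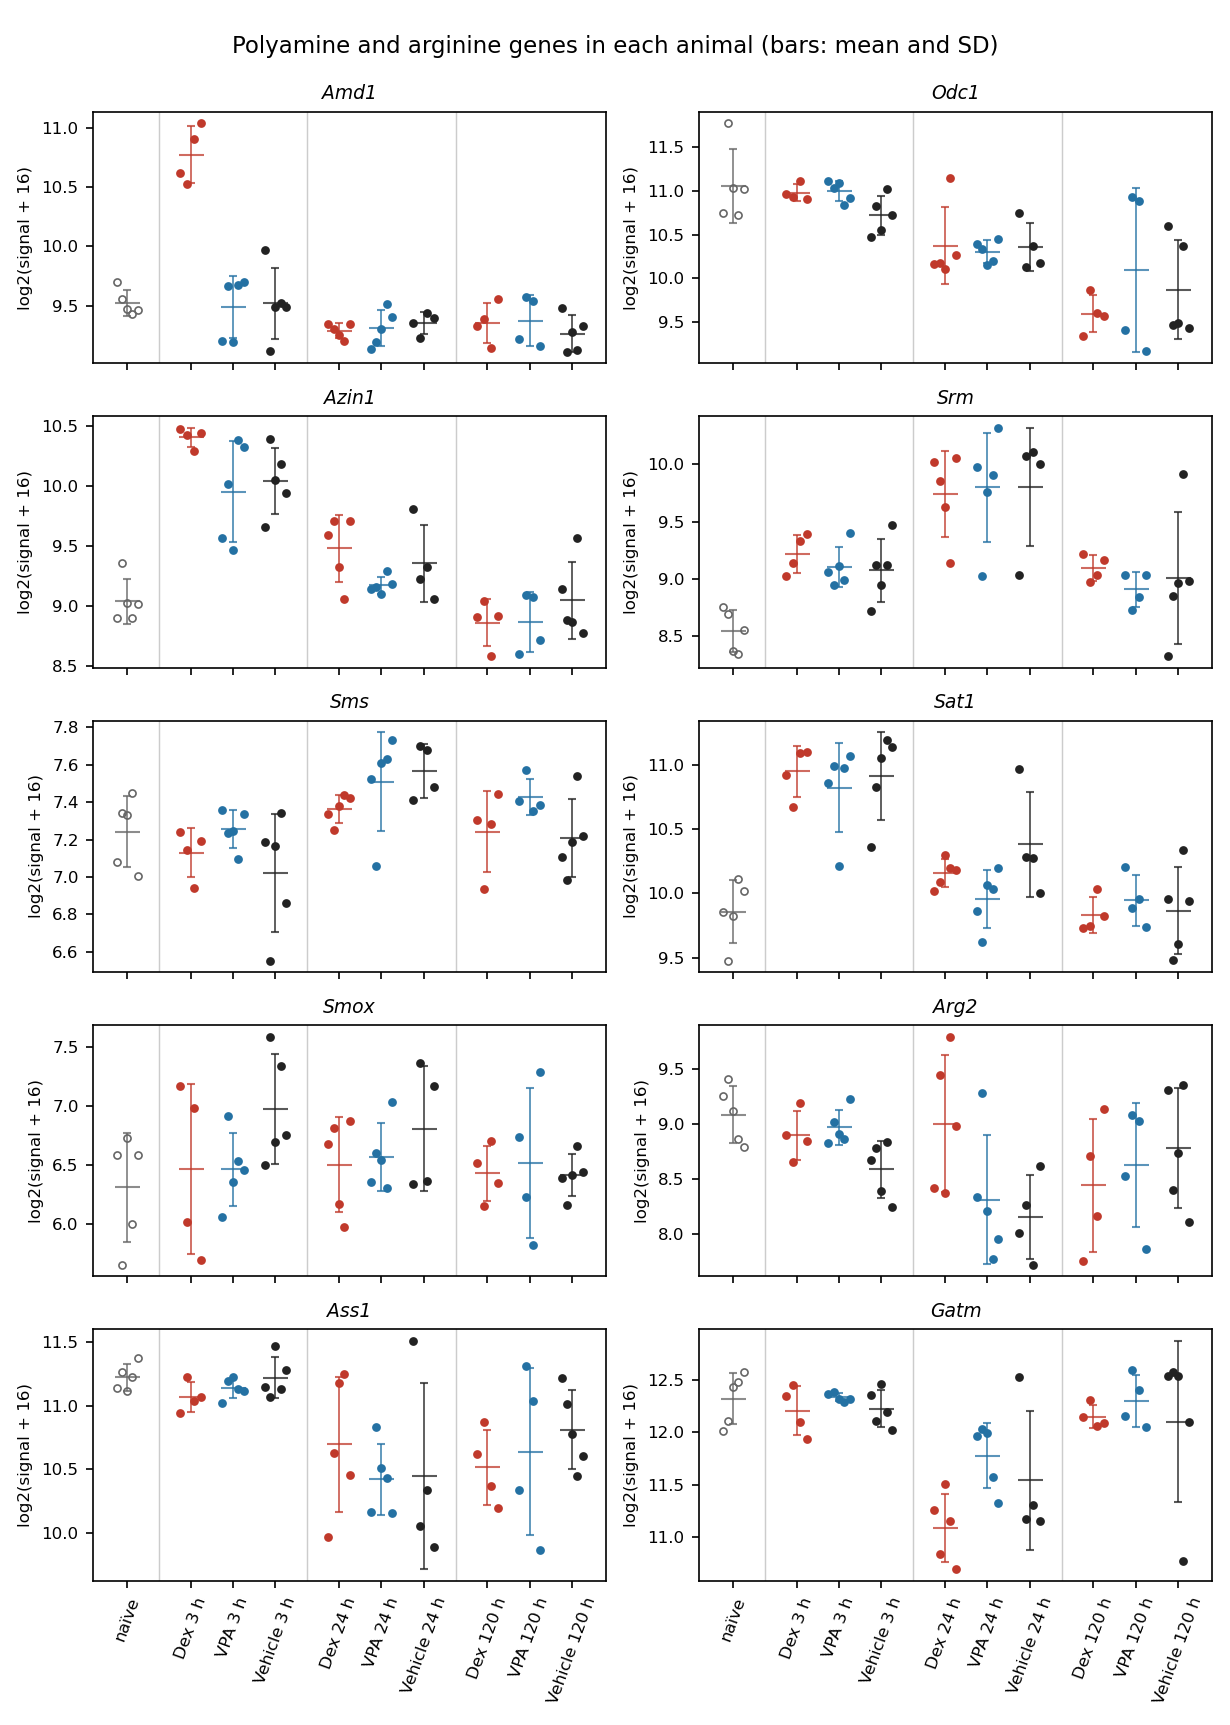
Log2(signal + 16) of the 10 genes, 1 panel per gene and 1 point per animal, with group means and SD (bars), with naïve kidneys at the left and then the Dex, VPA and Vehicle groups in order of time after injury. Amd1 stands apart in the 4 Dex kidneys at 3 h, and Odc1 in VPA kidneys at 120 h has 2 low and 2 high animals.

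Sat1, the acetyltransferase of polyamine breakdown, was about doubled at 3 h. Its signal was 1927, 1618, 2168 and 2183 in Dex kidneys, 1844, 2016, 1173, 1996 and 2130 in VPA kidneys, and 1297, 1804, 2111, 2321 and 2238 in Vehicle kidneys, against 909, 697, 890, 1090 and 1023 in naïve kidneys. All 14 injured kidneys at 3 h lay above all naïve kidneys. Log2 fold changes against naïve were 1.09 ± 0.18 in Dex (adjusted p = 1.99e-05), 0.96 ± 0.17 in VPA (adjusted p = 1.23e-04, under 2-fold) and 1.06 ± 0.17 in Vehicle kidneys (adjusted p = 2.11e-05). Without VPA replicate 3, which lay nearest naïve, the VPA value was 1.12 (adjusted p = 1.37e-05). Without naïve replicate 2 the Dex and Vehicle values were just under 2-fold at 1.00 and 0.96, with adjusted p of 1.42e-04 and 1.65e-04.

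At 24 h Sat1 had 1024 to 1243 in Dex, 771 to 1158 in VPA and 1010 to 1982 in Vehicle kidneys, and at 120 h 835 to 1031, 836 to 1167 and 700 to 1281. The only adjusted p under 0.05 at these times was in Vehicle kidneys at 24 h (0.53 ± 0.18, adjusted p = 0.0248). It rested on Vehicle replicate 1, the array nearest 3 h, without which the value was 0.33 (adjusted p = 0.172), and on naïve replicate 2 (0.43 without it, adjusted p = 0.0881). At 3 h 1, 1 and 4 of 8 neutrophil markers were called up in Dex, VPA and Vehicle kidneys, and 2, 0 and 3 of 4 measured red blood cell markers, where 4.44%, 1.43% and 3.18% of all probe sets rose. The median red blood cell score was 1.14, 0.29 and 1.68 in Dex, VPA and Vehicle kidneys and 0.31 in naïve kidneys. The median summed signal of the neutrophil markers was 292, 250 and 451 in Dex, VPA and Vehicle kidneys at 3 h and 136 in naïve kidneys. The part of these cells in the 3 h results was not tested.

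Smox, the spermine oxidase, had low signals of 34.4 to 177 and was called in no comparison. At 3 h it was 128, 48.8, 111 and 35.8 in Dex kidneys, 50.9, 105, 66.2, 76.8 and 71.9 in VPA kidneys, and 74.4, 177, 87.7, 147 and 92.3 in Vehicle kidneys, against 79.9, 34.4, 90.4, 48.1 and 80.3 in naïve kidneys. The spread within groups was as wide as the differences between them, and the highest value was 0.66 ± 0.27 in Vehicle kidneys (adjusted p = 0.0787). The probe set that also carries RGD1564480 gave 0.71 there (adjusted p = 0.0759 over all probe sets).

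Of the genes of arginine metabolism, Gatm, the first enzyme of creatine synthesis, fell at 24 h in Dex kidneys. Its signal was 2426, 1814, 2882, 2268 and 1637 in Dex kidneys, 3987, 4155, 4055, 3038 and 2545 in VPA kidneys, and 5880, 2289, 2520 and 2268 in Vehicle kidneys, against 4107, 4395, 5517, 5688 and 6091 in naïve kidneys. All Dex kidneys, all VPA kidneys except that at 4155, and 3 of 4 Vehicle kidneys lay below every naïve kidney. The exception among Vehicle kidneys was again replicate 1. On the log2 scale the changes were -1.23 ± 0.23 in Dex (adjusted p = 6.86e-04), -0.54 ± 0.23 in VPA (adjusted p = 0.0698) and -0.78 ± 0.25 in Vehicle kidneys (adjusted p = 0.0151). Without Vehicle replicate 1 the Vehicle value was -1.11 (adjusted p = 3.45e-04) and was called, whereas without replicate 2, 3 or 4 the adjusted p was 0.0814, 0.0593 or 0.0768. Dex and Vehicle kidneys differed by -0.45 ± 0.25, which did not pass (adjusted p = 0.583). At 120 h Gatm was 4237 to 5057 in Dex, 4216 to 6166 in VPA and 1728 to 6067 in Vehicle kidneys, where the lowest was Vehicle replicate 4, the array nearest 24 h.

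Ass1, the argininosuccinate synthase, had lower levels at 24 h that passed the adjusted p in VPA and Vehicle kidneys but were under 2-fold. Its signal was 987, 1570, 2305, 2422 and 1390 in Dex kidneys, 1133, 1810, 1446, 1367 and 1125 in VPA kidneys, and 2905, 1044, 1278 and 930 in Vehicle kidneys, against 2237, 2452, 2210, 2376 and 2642 in naïve kidneys. All VPA kidneys lay below all naïve kidneys, whereas 2 Dex kidneys and Vehicle replicate 1 did not. The log2 fold changes were -0.53 ± 0.23 in Dex (adjusted p = 0.105), -0.80 ± 0.23 in VPA (adjusted p = 0.00661) and -0.78 ± 0.25 in Vehicle kidneys (adjusted p = 0.0150). Without Vehicle replicate 1 the Vehicle value was -1.13 (adjusted p = 1.90e-04), and without replicate 2 or 4 the adjusted p was 0.0850 or 0.103. At 120 h only Dex kidneys passed the adjusted p (-0.71 ± 0.25, adjusted p = 0.0302), with 1158 to 1863 against 2210 to 2642 in naïve kidneys. That adjusted p was 0.0550 without naïve replicate 2, 0.0567 without naïve replicate 5, and 0.0503, 0.0873 and 0.109 without Dex replicates 1, 3 and 4.

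Arg2, the mitochondrial arginase of the kidney, had at 24 h a signal of 325, 683, 316, 874 and 489 in Dex kidneys, 306, 609, 280, 202 and 232 in VPA kidneys, and 242, 291, 194 and 376 in Vehicle kidneys, against 597, 664, 539, 449 and 426 in naïve kidneys. The Vehicle kidneys lay below all naïve kidneys, and the Dex kidneys spread across the naïve range and beyond it. Against naïve, log2 fold changes were -0.08 ± 0.28 in Dex (adjusted p = 0.853), -0.78 ± 0.28 in VPA (adjusted p = 0.0268) and -0.94 ± 0.29 in Vehicle kidneys (adjusted p = 0.0139), all under 2-fold. Without VPA replicate 2 the VPA value was -1.02 (adjusted p = 0.00299), but the adjusted p was 0.0523 to 0.0965 without naïve replicate 1 or 2 or VPA replicate 3, 4 or 5. The Vehicle value was -0.79 (adjusted p = 0.0708) without Vehicle replicate 3. Dex and Vehicle kidneys differed by 0.85 ± 0.29, which did not pass (adjusted p = 0.272, unadjusted p = 0.00590).

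Markers of the proximal tubule, where Gatm and Ass1 are mainly made, were low in the same kidneys. Of 19 measured markers 8, 7 and 10 fell at 24 h in Dex, VPA and Vehicle kidneys, with medians of -0.69, -0.96 and -1.08, and 0 fell at 3 h. Of all probe sets 2.59%, 3.55% and 4.23% fell at 24 h, and 0.657%, 0.459% and 0.459% at 3 h. At 120 h 3, 0 and 0 markers fell and 1, 0 and 1 rose, beside 3.73%, 0.192% and 1.51% of probe sets down and 4.76%, 0.493% and 1.83% up. The summed signal of the markers at 24 h was 15429 to 41043 in Dex, 18678 to 40689 in VPA and 15443 to 49515 in Vehicle kidneys, against 43499 to 52509 in naïve kidneys. The score of the markers (mean log2 difference from naïve) was 0.13 in Vehicle replicate 1 and -1.57, -1.08 and -1.62 in the other Vehicle kidneys at 24 h, so that the kidney with naïve-like markers was the one with naïve-like Gatm and Ass1. Odc1 at 120 h had VPA scores of 0.06 and -0.13 in its high pair and -0.86 and -1.30 in its low pair. Vehicle kidneys at 120 h did not follow this order, since replicate 4 had the lowest score (-1.04) with an Odc1 signal of 1304, and replicates 2 and 3 had scores of -0.28 and -0.42 with 692 and 703. In Dex kidneys at 24 h Gatm was low also where the score was near that of naïve kidneys, at 2882 and 2268 in replicates 3 and 4 with scores of -0.21 and -0.27. Markers of the loop and distal tubule were low as well. At 24 h 2, 5 and 4 of 8 measured genes were called down in Dex, VPA and Vehicle kidneys, with medians of -0.64, -1.39 and -1.47. At 120 h 4, 0 and 1 were called down, and the shares of all probe sets are those given above. The median scores of these markers were -0.66, -1.18 and -1.56 at 24 h, beside -0.87, -0.88 and -1.32 for the proximal tubule. The part of either tubule segment in these results was not tested.

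**Figure D3:**
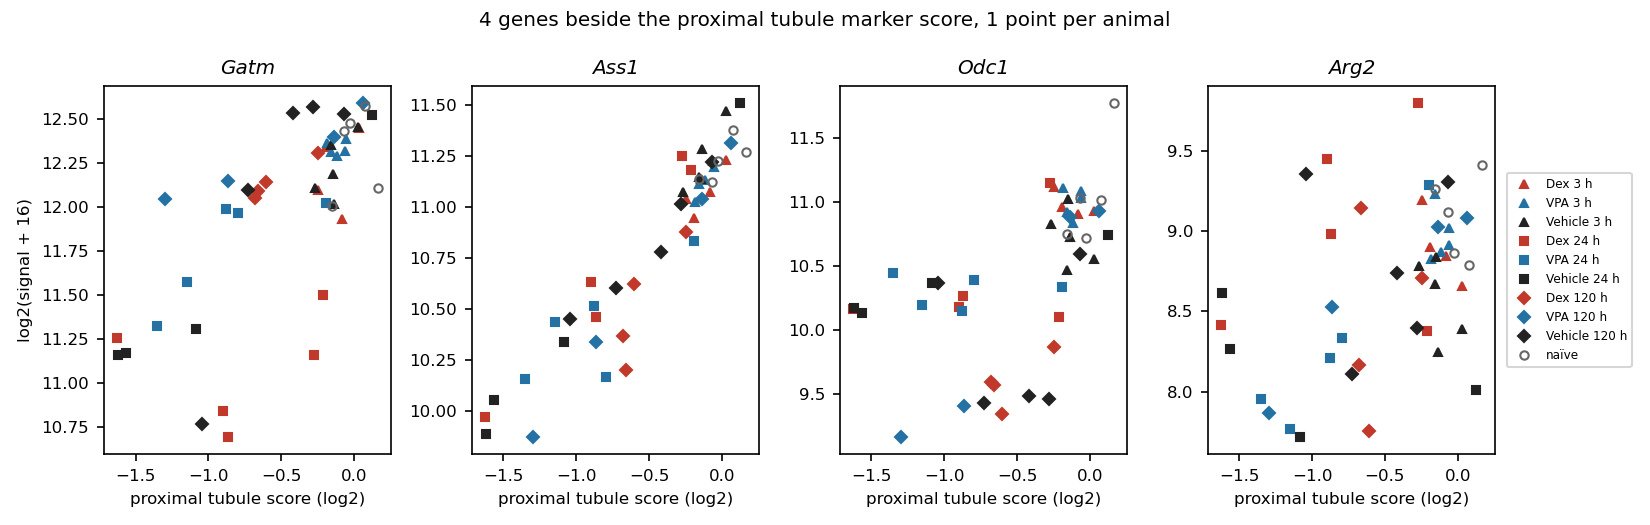
Log2(signal + 16) of Gatm, Ass1, Odc1 and Arg2 (y axes) against the proximal tubule marker score of the same kidney (x axes, mean log2 difference from naïve), with 1 point per animal, colour for treatment and shape for time. Kidneys with scores under -1 had Ass1 signals of 919 to 1384, and the Dex kidneys at 24 h had low Gatm at scores of -0.21 and -0.27 too.

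Besides Amd1 at 3 h, no member was called between Dex or VPA and Vehicle. The shares of probe sets called in either direction were 0.0548% for VPA against Vehicle at 3 h, 0.116% for Dex and 0% for VPA at 24 h, and 0% for both at 120 h. Over the 6 comparisons the numbers of members with an unadjusted p under 0.05 were 2 for Dex and 0 for VPA at 3 h, 1 and 1 at 24 h, and 0 and 0 at 120 h. These were Amd1 and Azin1 (Dex, 3 h), Arg2 (Dex, 24 h) and Sat1 (VPA, 24 h, -0.43 ± 0.18). The shares of all probe sets with an unadjusted p under 0.05 are not given here. The 95% intervals left room for changes of moderate size, for example from -0.28 to 0.80 for Odc1 and from -1.08 to 0.07 for Smox between Dex and Vehicle at 3 h.

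**Figure D4:**
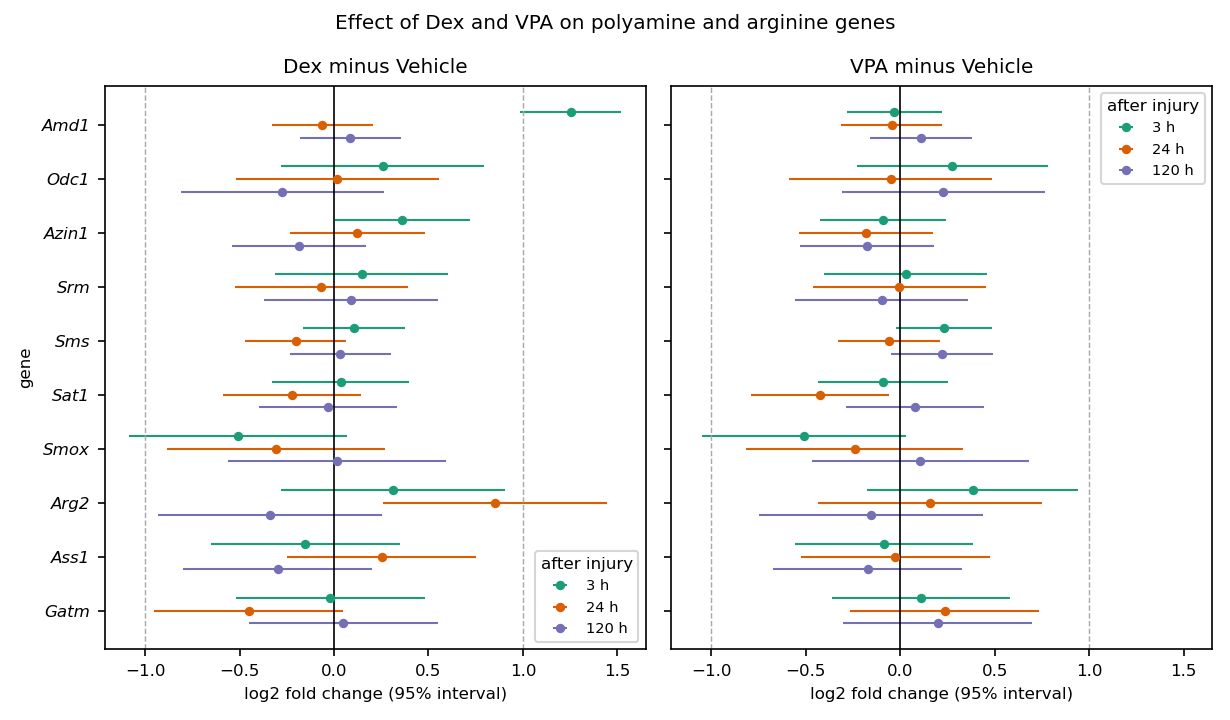
Log2 fold change of Dex minus Vehicle (left) and VPA minus Vehicle (right) for the 10 genes at each time after injury, with 95% intervals and dashed lines at 2-fold. The interval of Amd1 for Dex at 3 h (0.99 to 1.52) lies far from 0, and besides it only those of Azin1 (Dex, 3 h), Arg2 (Dex, 24 h) and Sat1 (VPA, 24 h) do not cross 0.

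Among Vehicle kidneys the members called between 24 h and 3 h and between 120 h and 24 h numbered 0, against 3.82% and 0.226% of probe sets. With the adjusted p alone 5 of 9 passed between 24 h and 3 h, beside 18.7% of probe sets. Srm was higher at 24 h than at 3 h (0.73 ± 0.23, adjusted p = 0.0221), and Azin1 (-0.69), Sat1 (-0.53), Ass1 (-0.78) and Gatm (-0.68) were lower at 24 h (adjusted p = 0.00716, 0.0351, 0.0254 and 0.0474). Without Vehicle 24 h replicate 4 none of the 5 passed, with adjusted p of 0.0576 for Azin1, 0.0969 for Srm, 0.166 for Ass1, 0.199 for Sat1 and 0.206 for Gatm. Between 120 h and 24 h 0 passed the adjusted p, beside 0.486% of probe sets. An unadjusted p under 0.05 was found for 4, and the share of all probe sets at that threshold is not given here. Without Vehicle 24 h replicate 1 the Srm value there was -1.06 (adjusted p = 0.00718) and was called.

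The other genes of these pathways were taken from lists of 51 genes, of which 45 were measured by a probe set of their own and 30 were tested. At 3 h 1 of the 30 rose in each of the Dex, VPA and Vehicle groups and 0 fell, beside 4.44%, 1.43% and 3.18% of all probe sets up and 0.657%, 0.459% and 0.459% down. At 24 h 0 rose and 4 fell in Dex, 4 rose and 5 fell in VPA, and 4 rose and 5 fell in Vehicle kidneys, beside 2.59%, 5.92% and 4.79% of probe sets up and 2.59%, 3.55% and 4.23% down. At 120 h the numbers were 1 and 4 in Dex, 0 and 0 in VPA, and 1 and 1 in Vehicle kidneys, beside 4.76%, 0.493% and 1.83% up and 3.73%, 0.192% and 1.51% down. Single arrays moved these counts: without Vehicle 24 h replicate 1, 5 rose and 11 fell in Vehicle kidneys, and without Dex 24 h replicate 4, 3 rose and 7 fell in Dex kidneys. Without VPA 120 h replicate 2, 1 rose and 4 fell in VPA kidneys, and without Vehicle 120 h replicate 1, 2 rose and 4 fell in Vehicle kidneys. The shares of all probe sets called in those fits are not given here, so these counts cannot be set against the shares above. The list median against naïve ran from -0.23 (Vehicle 24 h, where that of all tested probe sets was 0.13) to 0.01 (Vehicle 120 h, against 0.13).

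The gene that rose at 3 h was Slc7a1, the main cationic amino acid transporter, which carries arginine and ornithine into cells. Its signal at 3 h was 389, 253, 371 and 313 in Dex kidneys, 151, 267, 192, 236 and 273 in VPA kidneys, and 84.2, 538, 320, 411 and 280 in Vehicle kidneys, against 160, 44.5, 94.6, 65.6 and 104 in naïve kidneys. All Dex kidneys lay above all naïve kidneys, and 1 VPA and 1 Vehicle kidney lay within the naïve range. Log2 fold changes against naïve were 1.74 ± 0.34, 1.19 ± 0.32 and 1.54 ± 0.32 in Dex, VPA and Vehicle kidneys (adjusted p = 2.07e-04, 0.0102 and 6.09e-04). It also rose at 24 h in VPA (1.19) and Vehicle kidneys (1.53).

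Enzymes around ornithine and creatine, and annotated agmatinase, fell at 24 h in all 3 groups. Oat, the ornithine aminotransferase that turns ornithine toward glutamate and proline, was at -1.78, -1.80 and -1.81 in Dex, VPA and Vehicle kidneys (adjusted p = 8.99e-04, 2.49e-04 and 6.56e-04) and fell at 120 h in Dex (-1.59) and Vehicle kidneys (-1.41). The Vehicle range of Oat at 120 h (393 to 1922) overlapped that of naïve kidneys (1740 to 3537). Gamt, which methylates the product of Gatm to creatine, was at -1.04, -1.66 and -1.72 at 24 h (adjusted p = 0.0349, 5.98e-04 and 0.00112). Agmat, annotated as agmatinase, was at -1.34, -1.89 and -2.29 (adjusted p = 0.0379, 0.00198 and 9.96e-04). Its Vehicle kidneys at 24 h held 966, 106, 192 and 138 signal units, against 1075 to 1637 in naïve kidneys, and without replicate 1, the high one, the Vehicle value was -2.95. In Dex kidneys at 24 h the calls of Agmat and Gamt rested on single arrays: without Dex replicate 1 the values were -0.93 and -0.74 (adjusted p = 0.196 and 0.176), and both calls were lost in 7 of 10 fits with 1 array left out. Both genes were also called down in Dex kidneys at 120 h, at -1.57 and -1.15 (adjusted p = 0.0183 and 0.0230). Those calls held in 7 and 5 of 9 fits with 1 array left out. The cystine and dibasic amino acid transporter subunit Slc3a1 fell at 24 h in Dex (-1.16) and Vehicle kidneys (-1.18), where the Vehicle call was lost without Vehicle replicate 2 (-0.98). Sat2, a relative of Sat1, lay at the fold threshold in VPA (-1.03, adjusted p = 0.00431) and in Vehicle kidneys (0.4998 of naïve, adjusted p = 0.00984). Its Vehicle kidneys held 687, 206, 258 and 197 signal units, against 489 to 712 in naïve kidneys, so that the ranges overlapped through replicate 1. The Vehicle call was lost in 6 of 9 fits with 1 array left out (-0.82, adjusted p = 0.0608, without Vehicle replicate 4) and the VPA call in 3 of 10. Aldh9a1, an aldehyde dehydrogenase of polyamine breakdown, had 673 to 2066 signal units in Dex kidneys at 24 h, 857 to 1757 in VPA kidneys, and 2306, 952, 930 and 944 in Vehicle kidneys, against 2276 to 2356 in naïve kidneys. All but Vehicle replicate 1 lay below the naïve range. Its values were -0.88, -1.04 and -0.97 in Dex, VPA and Vehicle kidneys, all with an adjusted p under 0.05 (0.00337, 3.38e-04 and 0.00147), of which only that of VPA was past 2-fold. Without Vehicle replicate 1 the Vehicle value was -1.29 (adjusted p = 1.65e-05), without Dex replicate 4 the Dex value was -1.05, and without VPA replicate 4 or 5 the VPA value was -0.96 or -0.94.

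Other genes rose at 24 h. Aldh18a1 and Pycr1, enzymes of proline synthesis, were at 1.41 and 1.36 in VPA and at 1.25 and 1.11 in Vehicle kidneys, and Mtap, which recycles the methylthioadenosine left by Srm and Sms, was at 1.31 and 1.08. The signals of Pycr1 were low, at 34.5 to 100 in VPA and 25.5 to 61.5 in Vehicle kidneys, against 5.2 to 24.1 in naïve kidneys. The lower quartile of signal on an array ran from 19.9 to 37.6. The Vehicle call of Mtap was lost without Vehicle replicate 2, 3 or 4 (0.94 to 0.97) and that of Pycr1 without naïve replicate 2 (0.99). Without Dex replicate 4, Aldh18a1 and Pycr1 were called in Dex kidneys too (1.08 and 1.12). At 120 h Aldh18a1 rose in Dex kidneys (1.09) and Pycr1 in Vehicle kidneys (1.06, but 0.94 without Vehicle 120 h replicate 4 and 0.93 without naïve replicate 2). Mat2a, which makes S-adenosylmethionine, fell in Dex kidneys at 120 h (-1.19, adjusted p = 4.53e-04), but its probe set had 0 of 20 neighbours on the chromosome of the gene. None of the 3 measured antizyme genes varied enough to be tested.

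Between treatments, Prodh, the proline dehydrogenase, was the only listed gene called. Its signal at 24 h was 199, 609, 712, 1054 and 723 in Dex kidneys, against 239, 153, 188 and 171 in Vehicle kidneys. In naïve kidneys it was 399, 656, 348, 321 and 269. In 4 of 5 Dex kidneys it lay above all Vehicle kidneys. All Vehicle kidneys lay below every naïve kidney, and the Dex kidneys spread across the naïve range and beyond it. Prodh was called in no comparison with naïve. Dex and Vehicle differed by 1.58 ± 0.31 log2 units (adjusted p = 0.0235), but this adjusted p was 0.0628 to 0.139 without Dex replicate 2, 3, 4 or 5 or Vehicle replicate 2 or 4.

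**Figure D5:**
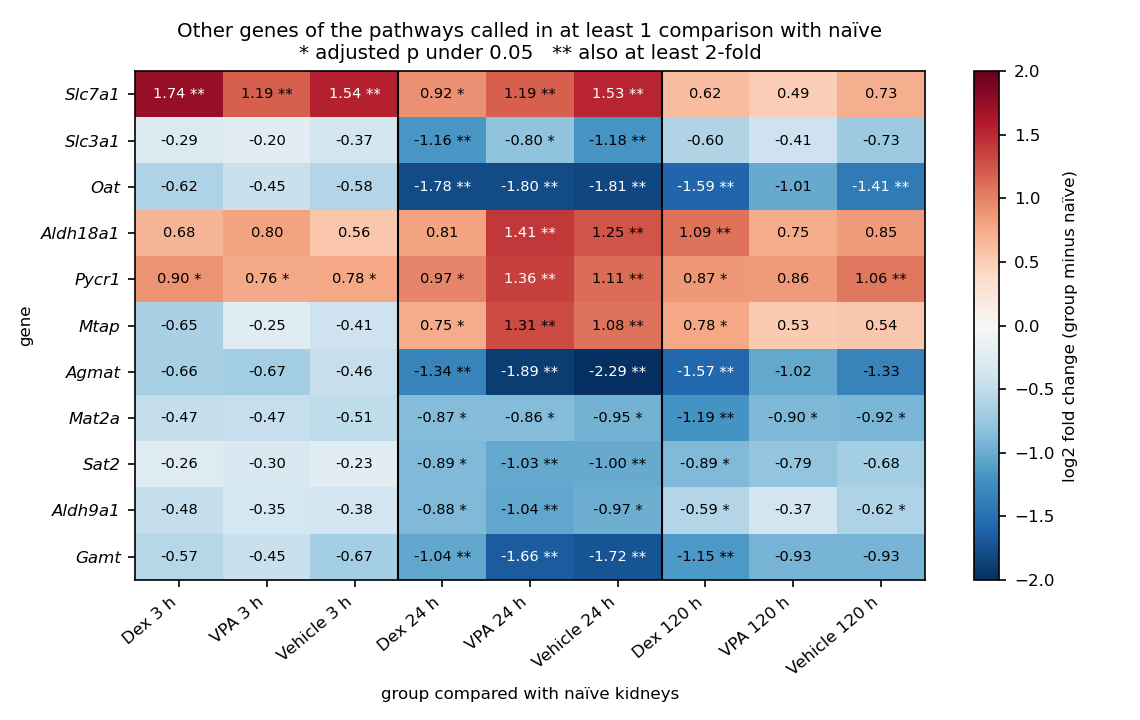
Log2 fold change against naïve kidneys (colour and number) for the 11 other genes of the pathways (rows) that were called in at least 1 of the 9 comparisons with naïve (columns, by time). Slc7a1 was high in every group at 3 h, and Oat, Gamt and Agmat were low in every group at 24 h.

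The genes whose patterns over the 46 arrays lay nearest each member, by Pearson's r on the log2 scale among 17244 other genes, differed from member to member. For Amd1 it was Edem1 (r = 0.86), for Azin1 Dnajb9 (0.94), for Sat1 Maff (0.92) and for Srm Pum3 (0.95) and Mybbp1a (0.93). For Odc1 it was Oosp2 (0.90) and Slc7a12 (0.89), for Ass1 Grhpr (0.96), for Gatm Calml4 (0.92) and for Arg2 Tmem50b (0.81). Sms had Mapkapk5 (0.77) and Smox had Parp8 (0.81). The arrays share time and treatment groups, so these are descriptions of likeness over the whole design.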

How the data were processed

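Total RNA of 46 rat kidneys was hybridised to Affymetrix Rat Gene 1.1 ST arrays. The authors summarised the probes with iterPLIER in Affymetrix Expression Console 1.1 and deposited linear signal intensity values, normalised between arrays. The paper states a smaller number of arrays than the 46 deposited, and it excluded some that failed the quality check at scanning. All 46 were used here, and whether any of the failed arrays are among them is not known. Array number limits the precision. Probe sets were named through the platform table (18644 of 29214 with 1 symbol, 962 with several, 9608 with none). Values were tested as log2(signal + 16) with limma 3.58.1 (R 4.3.3; lmFit and eBayes) over 10 groups. Following the study's methods, the 50% of probe sets with the lowest SD were left out. The Benjamini-Hochberg adjustment covered 14607. The fit was tested on simulated data.

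The members and lists were chosen with earlier results of these data known. Named genes are the 10 members, the listed pathway genes called in any comparison, and the nearest patterns. Marker lists were summed per array. Deviations of same-numbered animals of different groups had a median correlation of 0.01, with pairs from -0.70 to 0.58. This median cannot show whether some of them shared a run. No pairing is known, so the numbers were not taken as pairs. Alternatives were other normalisations, offsets, filters, weights and tests, and leaving out each array. In the main fit, p-values set differences between group means against the spread between animals within groups, pooled over all 10 groups.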

Additional observations from a re-analysis of the deposited data

Results flagged for a closer look

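In 100 sets of values (10 genes in 10 groups) 6 held a kidney far from the others of its group, and chance gives about 1 in 20. Odc1 was 2256 in Dex 24 h replicate 4, above 1085 to 1216 in the other 4 kidneys. Sat1 was 1173 in VPA 3 h replicate 3, below 1844 to 2130 in the others. Vehicle 24 h replicate 1 stood apart for Srm (508, below 1011 to 1087) and for Gatm (5880, above 2268 to 2520). Gatm was also low in Vehicle 120 h replicate 4 (1728, below 4374 to 6067). Azin1 was 639 in naïve replicate 2, above 460 to 505 in the other naïve kidneys. Of these 6 values, 5 came from arrays that lay nearest another time or naïve in overall profile.

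For Amd1 the difference between Dex and Vehicle itself differed between times, by -1.32 log2 units at 24 h minus 3 h (adjusted p = 1.19e-04) and by -1.17 at 120 h minus 3 h (adjusted p = 0.00161, limma). All 4 Dex kidneys at 3 h lay above every other array.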

How the results depend on the processing

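No result changed direction under any alternative while its adjusted p was under 0.05. Without the fold threshold the number of members called became 2 in VPA 3 h, 6 in Vehicle 24 h, 4 in VPA 24 h, 2 in Dex 120 h and 5 in Vehicle 24 h against 3 h (main 0, 1, 1, 1 and 0). With array weights it was 1 in VPA 3 h, 3 in Vehicle 24 h, 1 in VPA 120 h, 1 in Vehicle 24 h against 3 h, 2 in Vehicle 120 h against 24 h, and 2 (main 1) for effects that differed between times. Quantile normalization gave 1 in VPA 3 h. Without the 3 arrays nearest another time, a setting chosen after seeing the data, it was 3 in Vehicle 24 h, 2 in VPA 24 h, 2 in Vehicle 24 h against 3 h and 2 in Vehicle 120 h against 24 h. The cause was not tested. Apart from the setting without the fold threshold, the shares of all probe sets called under these settings are not given here. The same holds for the fits with 1 array left out.

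With 1 array left out at a time the number ran from 0 to 2 in Vehicle 3 h, 2 to 3 in Dex 3 h, 0 to 2 in VPA 3 h, 1 to 3 in Vehicle 24 h, 1 to 2 in VPA 24 h, 0 to 1 in VPA 120 h, 0 to 2 in Vehicle 24 h against 3 h and 0 to 1 in Vehicle 120 h against 24 h. The highest counts at 24 h came without Vehicle replicate 1 (Gatm and Ass1 also called) and VPA replicate 2 (Arg2 also called). Sat1 in Vehicle 3 h lost its call without naïve replicate 2 or Vehicle 3 h replicate 4, and Azin1 without naïve replicate 1, 4 or 5 or Vehicle 3 h replicate 2 or 4.

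Of 37 calls of other pathway genes, 22 held with each array left out in turn and 15 were lost with at least 1, in fits added after seeing the data.

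With the replicate number as a block the count of members called was the same in every comparison (3 in Dex 3 h, 2 in Vehicle 3 h, 0 in VPA 3 h), and Odc1 in Dex 24 h had an adjusted p of 0.0583. The numbers share no known animal, litter or day. Smox had the lowest signals of the members, and low array signals compress fold changes.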
